A study of Sus scrofa with 13 samples.

Results

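The genes described here are the HOX cluster genes, taken as every gene row whose symbol is HOX followed by A, B, C or D and a number. This gave 36 of the 27339 gene rows in the count tables: 11 in the HOXA cluster, 8 in HOXB, 9 in HOXC and 8 in HOXD. No row carried the symbol HOXB4, HOXB9 or HOXD4, so the sums below leave these genes out. The mark measured was 5hmC (5-hydroxymethylcytosine), which TET enzymes make by oxidising methylated cytosine; genomic DNA carrying it was pulled down with an antibody and sequenced. The cells were mesenchymal stem cells grown out of subcutaneous abdominal fat, taken from female domestic pigs on a high-cholesterol diet after a coil had narrowed 1 renal artery, and both groups share this origin. The 6 hypoxia libraries came from cells held at 1% oxygen for 48 hours, and the 6 normoxia libraries from cells held at 20% oxygen. The titles number the libraries of both groups 110, 16, 21, 33, 49 and 4. The labels leave the meaning of a number unsaid, so the p-values rest on a spread among libraries that may be technical. All libraries are from passaged cultures, and neither strain nor age is stated.

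HOX genes encode transcription factors that bind DNA through a homeodomain and give cells their position along the body axis. In mammals they lie in 4 clusters, in which genes of the same number (paralogues) descend from 1 ancestral gene, low numbers acting towards the head and high numbers towards the tail and the limb ends. Stromal cells and fat progenitors keep a HOX pattern of the site they were taken from. The clusters are rich in CpG and are classic targets of the Polycomb and trithorax chromatin regulators. TET enzymes need oxygen to work.

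The hypoxia libraries held 353379 to 623108 reads in genes and the normoxia libraries 263578 to 714002, which were 2.17 to 2.56% of the reads in the hypoxia tables and 1.69 to 2.89% of those in the normoxia tables. HOX genes received 317 to 626 of them per hypoxia library and 181 to 985 per normoxia library. Normoxia 21 stood apart, with the fewest gene reads, the lowest share of reads in genes (1.69%) and the lowest share of gene reads at HOX genes (0.0687%, exact 95% binomial interval 0.0590 to 0.0794%, which covers counting error only). Normoxia 4 had the highest HOX share, 0.138% (0.129 to 0.147%). The 5hmC signal lies on DNA and cannot name a cell type, so marker rows check the label only loosely. Gene rows of 9 stromal markers summed to 917 to 1380 CPM (gene reads scaled to library size with TMM factors) in hypoxia and 899 to 1910 CPM in normoxia. Those of 5 leukocyte markers summed to 306 to 369 CPM in hypoxia and 219 to 427 CPM in normoxia. Those of 4 endothelial markers summed to 265 to 413 CPM in hypoxia and 228 to 354 CPM in normoxia, and those of 4 epithelial markers to 77.0 to 131 CPM in hypoxia and 61.4 to 111 CPM in normoxia. The marker sets differ in size and gene length was not taken into account, so the higher stromal sum does not bear out the label. No marker was at 0 reads in all libraries.

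**Figure D1:**
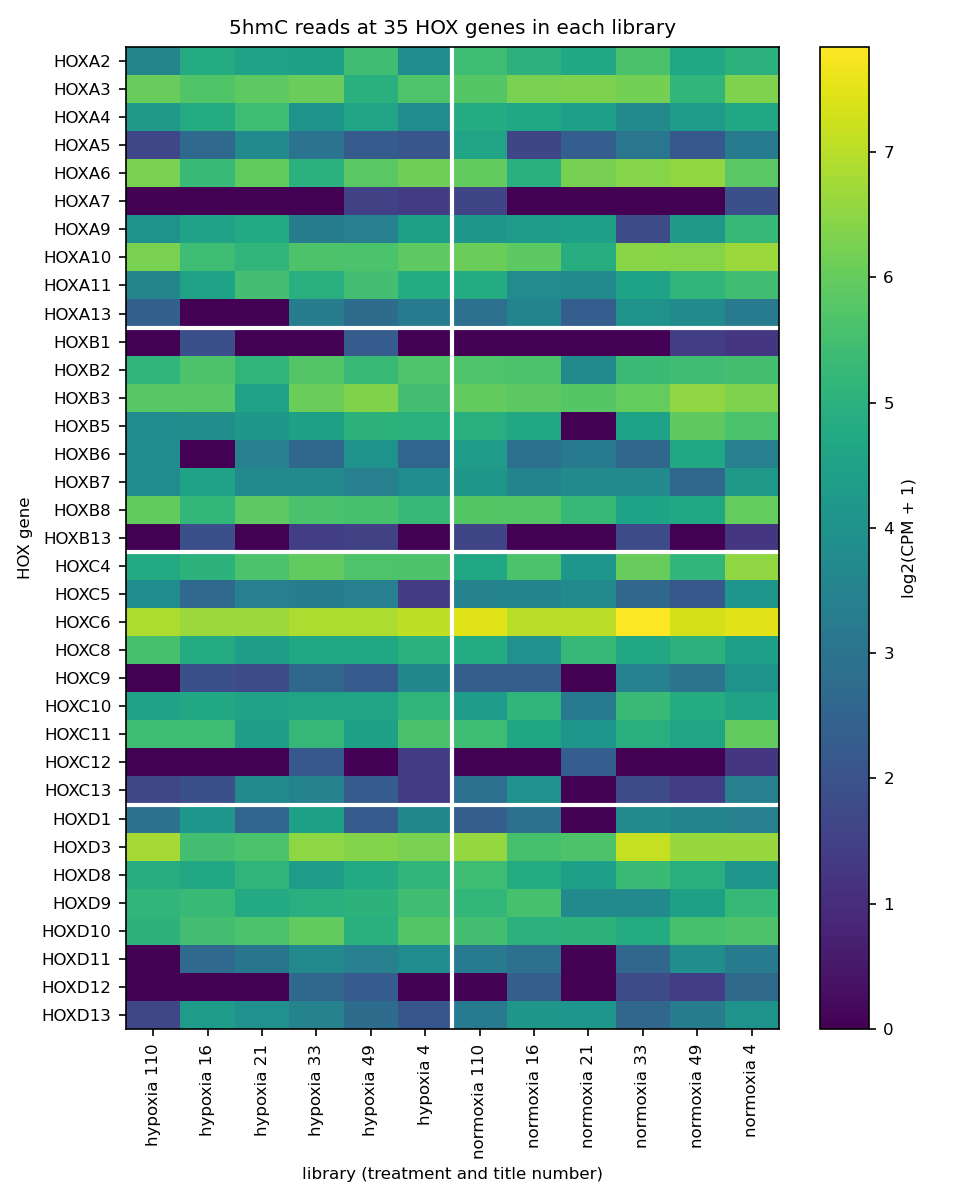
Rows are 35 of the HOX genes by cluster and paralogue number, columns are the 12 libraries with hypoxia on the left, and colour is log2(CPM + 1). HOXC6 is the brightest row in all 12 libraries, while HOXA7, HOXB1, HOXB13, HOXC12 and HOXD12 are dark in most of them.

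The HOX reads were concentrated in a few genes. HOXC6 alone had 832 of the 6144 HOX reads and ranked first of the 36 members in 12 of 12 libraries. HOXD3 followed with 492 reads and was among the first 3 in 8 libraries. At the other end HOXA7, HOXB1 and HOXC12 had 5 reads each over all 12 libraries, HOXB13 6 and HOXD12 13. Gene length was not taken into account, so these figures rank reads and not the density of 5hmC. The read count filter left 20 members for testing, and these held 10.7 to 69.3 reads per library on average, against a median of 23.9 over all 11868 tested genes. The other 16 members held 10.6% of the HOX reads, 5 to 109 each.

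By position, paralogues 1 to 3 summed to 287 ± 44.3 CPM in hypoxia and 333 ± 66.0 CPM in normoxia (mean ± SD, n = 6 each, as for all such values below). Paralogues 4 to 8 summed to 398 ± 38.6 CPM in hypoxia and 472 ± 78.8 CPM in normoxia. Paralogues 9 to 13, the genes of the lower trunk and limb, summed to 271 ± 31.4 CPM in hypoxia and 283 ± 82.6 CPM in normoxia. These sets hold 8, 13 and 15 members, in that order, so their sums do not compare levels per gene. Low sums were not confined to 1 end of the clusters. Group 7, in the middle, summed to 14.2 ± 3.88 CPM in hypoxia and 13.3 ± 5.62 CPM in normoxia. Among the terminal groups, group 12 summed to 2.36 ± 3.46 CPM in hypoxia and 3.24 ± 2.38 CPM in normoxia. Group 13 summed to 20.3 ± 8.70 CPM in hypoxia and 27.9 ± 8.47 CPM in normoxia. Groups 7 and 12 hold 2 members each and group 13 holds 4.

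Summed over the 36 members, HOX genes had 956 ± 61.6 CPM in hypoxia and 1088 ± 210 CPM in normoxia, and the hypoxia library was the lower one in 5 of 6 numbers. The exception was number 21, with 900 CPM in hypoxia and 743 CPM in normoxia. Hypoxia libraries ran from 865 to 1017 CPM and normoxia libraries from 743 to 1356 CPM, so the normoxia range held the whole hypoxia range. Without normoxia 21 the other 5 normoxia libraries ran from 966 to 1356 CPM, which still overlapped the hypoxia range. These sums carry no test. In bulk DNA, fewer cells with the mark and less of the mark per cell cannot be told apart.

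**Figure D2:**
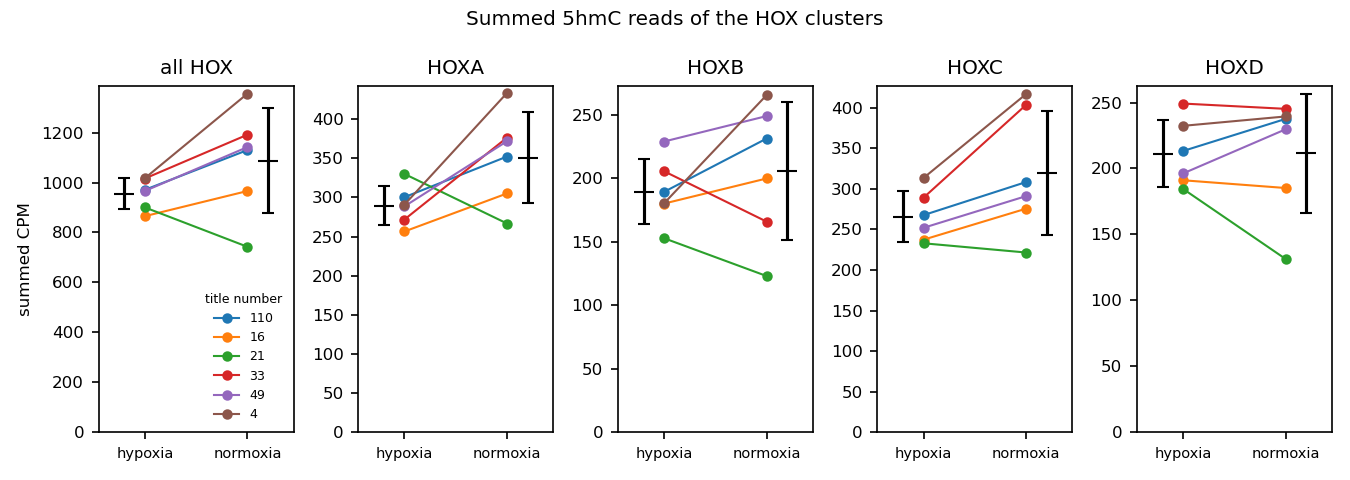
Each panel shows the summed CPM of the members of all clusters or of 1 cluster. Points are libraries, lines join libraries that share a title number, and black bars are mean ± SD (n = 6 each). The line of number 21 runs down from hypoxia to normoxia in every panel, while in HOXA and HOXC the other 5 lines run up.

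Cluster by cluster, HOXA summed to 290 ± 25.1 CPM in hypoxia and 351 ± 58.5 CPM in normoxia, lower in hypoxia in 5 of 6 numbers. HOXC summed to 266 ± 31.3 CPM in hypoxia and 320 ± 76.2 CPM in normoxia, also lower in 5 of 6. Without HOXC6 the HOXC sum was 151 ± 19.3 CPM in hypoxia and 153 ± 49.3 CPM in normoxia, lower in 3 of 6, so the gap between the HOXC means lay almost wholly in that gene. HOXB summed to 190 ± 25.8 CPM in hypoxia and 206 ± 54.0 CPM in normoxia. HOXD was level, with 211 ± 25.4 CPM in hypoxia and 211 ± 44.8 CPM in normoxia. Whether clusters differ in their response was not tested.

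The comparison of hypoxia with normoxia asked whether 1% oxygen altered the 5hmC signal at single HOX genes relative to other genes. Counts were scaled to the gene reads of each library, so a gain or loss shared by all genes would not show. No HOX member was called by edgeR's quasi-likelihood test at a Benjamini-Hochberg adjusted p of 0.05, 0 of 20 tested against 0 of all 11868 genes (0%). At an unadjusted p under 0.05 there was 1 member, HOXC6, which was lower in hypoxia, where 1.74% of all tested genes were at that p and lower. No member was at that p and higher in hypoxia, as 0.944% of all tested genes were, and 2.69% were in either direction. DESeq2's Wald test also called 0 members, and 0 of all genes, and had 1, HOXC6, at an unadjusted p under 0.05, as 2.81% of all genes were in that fit. With the title number as a block, 0 members were called (0.0337% of all genes were) and 2, HOXC6 and HOXA10, had an unadjusted p under 0.05, both lower in hypoxia, where 4.31% of all genes did so and 7.05% in either direction. No tested member had hypoxia and normoxia ranges that did not overlap (0.101% of all tested genes had), and none was higher in hypoxia in 6 of 6 numbers (1.74% of all tested genes were).

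Of the 20 tested members, 12 had a negative log2 fold change (hypoxia over normoxia) and 8 a positive one, with a median of -0.09. Of all tested genes 55.6% were negative, with a median of -0.04. By cluster, 5 of 7 tested members were negative in HOXA, 2 of 4 in HOXB, 3 of 5 in HOXC and 2 of 4 in HOXD. Standard errors of 0.206 to 0.415 on the log2 scale limit what could be seen at these depths. The sequencing lane, read from the file names, splits the numbers. In lane 7 (numbers 110, 16, 21 and 33) 9 of 19 members were negative with a median of 0.11. In lane 8 (49 and 4) 16 of 21 were negative with a median of -0.26. Among the lane 7 numbers, only number 21 had a positive median difference in log2 CPM (0.56). The medians of 110, 16 and 33 were -0.08, -0.16 and -0.05. Whether the lane played a part was not tested.

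**Figure D3:**
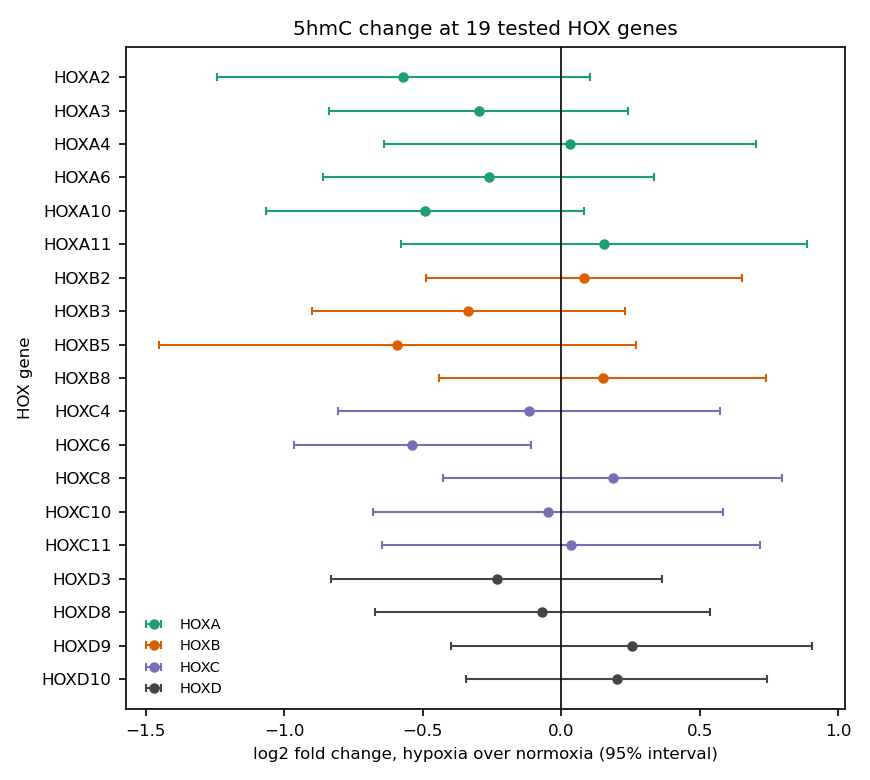
Points are log2 fold changes of hypoxia over normoxia for 19 of the tested HOX genes, from edgeR without the block, with 95% intervals, coloured by cluster. HOXC6 is the 1 gene whose interval, -0.96 to -0.11, leaves out 0. The p behind it does not pass after adjustment over all genes.

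HOXC6, a gene of thoracic patterning, had 99.5 CPM in its lowest hypoxia library, a median of 116 and a highest value of 136 CPM. Its normoxia libraries had 126 CPM at the lowest, a median of 168 and 228 CPM at the highest. The hypoxia library was the lower one in 6 of 6 numbers, as it was at 2.55% of all tested genes, and the groups overlapped only through hypoxia 4 against normoxia 16 and 21. The means were 114 ± 13.5 CPM in hypoxia and 166 ± 37.9 CPM in normoxia, a log2 fold change of -0.54 ± 0.206 (SE) or 0.689-fold (unadjusted p 0.0160, adjusted p 1). With the block the log2 fold change was -0.52 ± 0.179 (unadjusted p 0.00628, adjusted p 0.541). The widest gap was in number 33, with 117 CPM in hypoxia and 228 CPM in normoxia, and the unadjusted p was 0.0536 without normoxia 33. Within lane 7 the log2 fold change was -0.59 and within lane 8 -0.41.

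HOXC6 overlaps a non-coding gene, LOC110260669, in the pig RefSeq annotation (Sscrofa11.1), and reads from DNA cannot be assigned to either strand. That gene's own row had 114 ± 30.2 CPM in hypoxia and 125 ± 8.45 CPM in normoxia, a log2 fold change of -0.14 ± 0.212 (adjusted p 1). It was lower in hypoxia in 4 of 6 numbers. The other paralogues of group 6 did not share the 6 of 6 pattern. HOXA6 was lower in 3 of 6 numbers, with 55.1 ± 17.3 CPM in hypoxia and 66.5 ± 23.1 CPM in normoxia. HOXB6, under the count filter, was lower in 4 of 6, with 8.04 ± 5.74 CPM in hypoxia and 12.1 ± 7.81 CPM in normoxia.

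**Figure D4:**
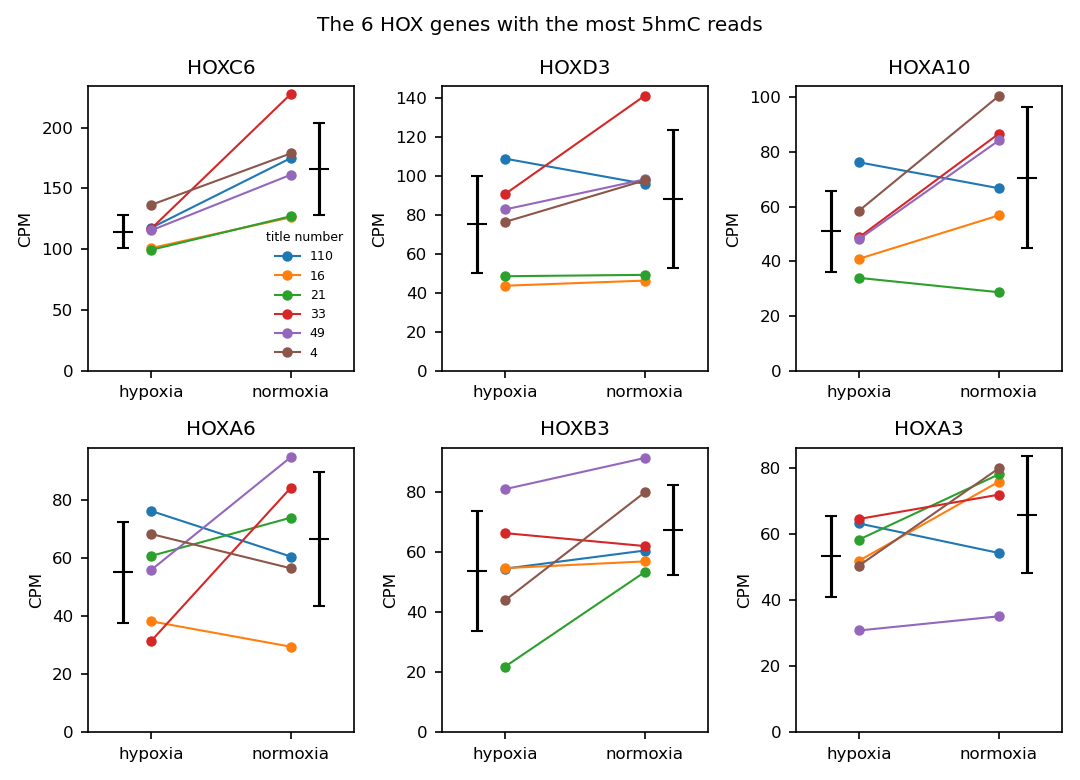
Panels show CPM per library of the 6 HOX genes with the highest mean CPM. Lines join libraries sharing a title number, and black bars are mean ± SD (n = 6 each). In the HOXC6 panel all 6 lines run up from hypoxia to normoxia, and in the other 5 panels at least 1 line runs down.

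HOXD3, HOXA3 and HOXB3, the group 3 paralogues of hindbrain and neck patterning, all had lower means in hypoxia without passing the test. HOXD3 ran from 43.7 CPM through a median of 79.6 to 109 CPM in hypoxia, and from 46.3 through 96.8 to 141 CPM in normoxia. Both libraries of number 16 and both of number 21 were under 50 CPM, and no other library was, so the low HOXD3 values came in same-numbered pairs. Its hypoxia library was lower in 5 of 6 numbers, and its log2 fold change was -0.23 (adjusted p 1). HOXA3, which shapes the thymus and parathyroid in mice, had 30.8, 55.1 and 64.5 CPM (lowest, median, highest) in hypoxia and 35.1, 73.8 and 79.8 CPM in normoxia. Here both libraries of number 49 were the low ones. HOXB3 had 21.8, 54.5 and 80.8 CPM in hypoxia and 53.3, 61.2 and 91.2 CPM in normoxia, and hypoxia 21 was the library that stood below the rest.

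HOXA10, which patterns the lumbar spine and the uterus, had 34.0, 48.5 and 76.2 CPM (lowest, median, highest) in hypoxia and 28.7, 75.4 and 100 CPM in normoxia. Numbers 16, 33, 49 and 4 were lower in hypoxia, and 110 and 21 were higher. Its log2 fold change was -0.49 ± 0.277 (SE), with an unadjusted p of 0.0901, and -0.47 ± 0.226 with the block, unadjusted p 0.0442 and adjusted p 0.702. HOXA6 had 31.4, 58.2 and 76.2 CPM in hypoxia and 29.5, 67.2 and 94.7 CPM in normoxia, with the ranges overlapping almost entirely.

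HOXA2, which sets the identity of the second branchial arch, averaged 22.7 ± 11.4 CPM in hypoxia and 33.5 ± 9.13 CPM in normoxia and was lower in 5 of 6 numbers. Its log2 fold change was -0.57 ± 0.324 (SE, unadjusted p 0.0929, adjusted p 1). It was -0.87 within lane 7 and -0.03 within lane 8, and -0.87 without hypoxia 49, the highest of the hypoxia libraries. HOXB5, which positions the shoulder in mice, averaged 21.4 ± 8.57 CPM in hypoxia and 30.8 ± 20.9 CPM in normoxia, with 0 reads in normoxia 21. Without that library HOXB5 and HOXA10 joined HOXC6 at an unadjusted p under 0.05, each with an adjusted p of 0.779, where 6.11% of all genes were at such a p, against 2.69% with all libraries.

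The members with the smallest p among those higher in hypoxia were all far from the threshold. HOXD9, a limb and lumbar gene, had 34.1 ± 5.67 CPM in hypoxia and 27.4 ± 14.2 CPM in normoxia, a log2 fold change of 0.25 ± 0.314 (SE). HOXD10, its neighbour with a role in the limb and motor neurons, had 44.8 ± 11.6 CPM in hypoxia and 38.4 ± 9.02 CPM in normoxia, a log2 fold change of 0.20 ± 0.261. Both were higher in hypoxia in 4 of 6 numbers, and the 2 genes overlap in RefSeq, so how their shared reads were counted is uncertain. HOXC8, known for spinal patterning, had 28.8 ± 9.10 CPM in hypoxia and 26.0 ± 7.86 CPM in normoxia, a log2 fold change of 0.19 ± 0.294. HOXB8, of spinal sensory circuits and microglial progenitors in mice, had 47.5 ± 10.4 CPM in hypoxia and 42.1 ± 16.6 CPM in normoxia, a log2 fold change of 0.15 ± 0.284. Their adjusted p were 1, and within lane 8 HOXD10 (-0.17) and HOXB8 (-0.04) had the opposite sign.

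HOXA4 averaged 23.0 ± 10.4 CPM in hypoxia and 21.6 ± 5.39 CPM in normoxia. HOXA11, of the forearm and kidney, averaged 29.7 ± 12.9 CPM in hypoxia and 25.3 ± 12.2 CPM in normoxia. HOXB2, a hindbrain and facial nerve gene, was at 43.2 ± 8.32 CPM in hypoxia and 39.6 ± 13.9 CPM in normoxia. In the HOXC cluster, HOXC4 averaged 44.5 ± 12.7 CPM in hypoxia and 46.9 ± 28.0 CPM in normoxia. HOXC10, a gene of the hindlimb level that also marks subcutaneous fat in humans, averaged 24.7 ± 4.74 CPM in hypoxia and 25.1 ± 11.2 CPM in normoxia. HOXC11, next to it, averaged 34.4 ± 11.5 CPM in hypoxia and 32.4 ± 16.2 CPM in normoxia. HOXD8 averaged 27.8 ± 5.73 CPM in hypoxia and 29.3 ± 10.0 CPM in normoxia. In none of these 7 genes was the difference in means larger than the SD within the normoxia group.

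Among the 16 members under the count filter, the posterior genes HOXA13, HOXC13, HOXD11 and HOXD13, genes of the limb ends, the hair follicle or the urogenital tract, had 43, 35, 48 and 59 reads over all libraries. HOXA13 had 15 reads in the hypoxia and 28 in the normoxia libraries, and its CPM was lower in hypoxia in 6 of 6 numbers. So it was at 2.55% of the tested genes, which do not include HOXA13. Its libraries held 0 to 7 reads each, and number 21 had 0 reads in hypoxia and 1 in normoxia. HOXA9, a regulator of blood progenitors, had 109 reads, the most of any untested member, HOXB7 76, HOXB6 61, HOXD1 55 and HOXC5 52. HOXA5, a gene of lung and fat development, had 40 reads and HOXC9 37. In a fit without the count filter none of the 16 was called. HOXA13 had the smallest p among them, with a log2 fold change of -0.91 ± 0.543 (SE, unadjusted p 0.102, adjusted p 1). HOXA9 had -0.19 ± 0.406 and HOXB7 0.10 ± 0.394, as precise as the least precise tested member, while the SE of HOXC12 was 1.03.

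Over the 20 tested members, the median difference in log2 CPM (hypoxia minus normoxia) was -0.08 in number 110, -0.16 in 16, 0.56 in 21, -0.05 in 33, -0.17 in 49 and -0.47 in 4. Medians over all tested genes lay between -0.04 and 0.01 in the 6 numbers. Number 21, the pair with normoxia 21 in it, was the 1 pair with a positive median, with 13 of 20 members higher in hypoxia. In the blocked fit without both libraries of number 21, 15 of 20 members were negative with a median of -0.23, where the median of all genes was -0.02, and HOXC6, HOXA10, HOXA2 and HOXB5 had an unadjusted p under 0.05, as 10.3% of all genes did. The lowest adjusted p among them was 0.215, for HOXC6. The part of the low share of gene reads in normoxia 21 in these values was not tested.

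Genes that work with or on the HOX clusters were read in the same fit. None of their tested members was called, with or without the block. Of 8 tested TALE cofactors, the homeodomain partners that bind DNA together with HOX proteins, 6 had a positive log2 fold change and 2 a negative one (median 0.09). PBX2 had 72.0 ± 16.3 CPM in hypoxia and 57.2 ± 13.9 CPM in normoxia (log2 fold change 0.33), and MEIS3 29.7 ± 4.59 CPM in hypoxia and 23.8 ± 7.29 CPM in normoxia (0.33). Of 19 tested Polycomb and trithorax regulators, 7 had a positive value and 12 a negative one (median -0.04). DOT1L, the histone H3 lysine methyltransferase that sustains HOX transcription in human leukaemia, had 27.4 ± 10.7 CPM in hypoxia and 50.5 ± 27.6 CPM in normoxia, a log2 fold change of -0.91 ± 0.353 (SE, unadjusted p 0.0168, adjusted p 1). EED, the Polycomb subunit that reads the repressive mark, had 18.2 ± 8.28 CPM in hypoxia and 28.8 ± 11.1 CPM in normoxia (log2 fold change -0.60).

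Retinoic acid signalling, a classic inducer of HOX genes, had 3 positive and 10 negative members of 13 tested, and the median log2 fold change was -0.23. That median was 0.06 within lane 7 and -0.15 within lane 8, and -0.05 without normoxia 4. RARA, a retinoic acid receptor gene, ran from 8.19 to 32.7 CPM in hypoxia and from 8.21 to 64.7 CPM in normoxia (log2 fold change -0.85, unadjusted p 0.0409, adjusted p 1). ALDH1A2, which makes retinoic acid, had the higher mean in hypoxia, 39.4 ± 11.3 CPM, against 25.7 ± 6.22 CPM in normoxia (0.58, unadjusted p 0.0478, adjusted p 1). Of the ParaHox and CDX genes, relatives of HOX, 1 of 6 had enough reads, CDX4, with 45.3 ± 15.8 CPM in hypoxia and 35.6 ± 25.2 CPM in normoxia.

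Of 11 tested genes beside the clusters, 5 were positive and 6 negative, with a median log2 fold change of -0.07. JAZF1, a zinc finger gene with 3 protein-coding genes between it and HOXA13 in RefSeq, had 49.7 ± 24.2 CPM in hypoxia and 112 ± 63.3 CPM in normoxia and was lower in 6 of 6 numbers. Its log2 fold change was -1.14 ± 0.374 (SE, adjusted p 1), and -1.11 in the blocked fit (adjusted p 0.0598). In the blocked fit without number 21 it was called, again at -1.11 (adjusted p 0.0216). It was 1 of 12 genes called among all 12165 tested in that fit. SNX11, near HOXB1, had 31.2 ± 10.7 CPM in hypoxia and 16.6 ± 12.3 CPM in normoxia (log2 fold change 0.75, adjusted p 1). EVX1 and EVX2, the homeobox genes next to HOXA13 and HOXD13, had 7 and 27 reads in all and were not tested.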

How the data were processed

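Per the labels' protocols, sonicated and denatured DNA was incubated with an anti-5hmC antibody and single-strand libraries were sequenced from both ends. The submitters' processing notes name Bowtie2, Picard, HTSeq, MACS2 and edgeR. The authors deposited raw read counts per gene symbol for each hypoxia and normoxia library. An input library is also labelled, but no counts of it were available here, so no level was corrected for input. For the genome build, feature type and strand setting the sources used here give nothing, so the deposited peak lists could not be placed at HOX genes and are not used. Between 88.0 and 93.0% of reads fell outside any feature and 4.12 to 10.3% had low alignment quality. These rows stayed out of library sizes and tests, as did a blank row without reads. Overlapping genes may share or lose reads. All 36 members were found in RefSeq Sscrofa11.1, used for names and neighbours only. There 17 of them overlap some other gene, and 7 overlap another HOX gene, as HOXA3 and HOXA6 do. HOXC8 overlaps the non-coding gene LOC106510294, and HOXB5 overlaps the non-coding gene LOC102166259.

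The quasi-likelihood test of edgeR 4.0.16 (R 4.3.3) was run on TMM-scaled counts of the 11868 genes that passed filterByExpr (minimum count 10, total 15), with Benjamini-Hochberg adjustment over them, a threshold of 0.05 and 95% intervals from the SE. CPM are scaled by TMM-adjusted gene reads. DESeq2 1.42.0 and other settings were alternatives. A planned scale per coding length was not used. The fit was also run on simulated counts, with a spread between numbers set by hand, and the outcome of that run is not used here. Same-numbered libraries correlated at 0.135 to 0.478 after removal of group means, above 0.1 in each pair. The numbers, taken from the titles, were therefore treated as pairs in the blocked fit. Correlations between libraries of different numbers were not set beside these, and same-numbered libraries also shared a lane. No 2 libraries agreed within sampling noise (lowest chi-square per degree of freedom 1.31 over 66 pairs). Members were named by level or total reads, except 1 that is not reported here and enters only the counts and sums. Values per library were given for the 6 members with the highest mean CPM, and fold changes for the 3 with the smallest p per direction in either fit and 2 per companion list. HOXB5, the log2 values of HOXD3 and of LOC110260669, and members named by lane or left-out library were chosen after their values were seen. Members and lists were chosen with earlier results of these data known.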

Additional observations from a re-analysis of the deposited data

Results flagged for a closer look

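In 2 of 50 groups of 6 libraries looked at (20 tested members and 5 sums in each condition), 1 library lay far from the other 5, and chance alone gives about 1 in 20 such groups. HOXB2 had 12.3 CPM in normoxia 21, where the next normoxia library had 39.6 CPM. HOXC10 had 34.1 CPM in hypoxia 4, where the next hypoxia library had 24.6 CPM. The log2 fold change of neither gene passed the test.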

How the results depend on the processing

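No HOX member was called under any of the 26 alternatives, which were the replicate block, other scalings, all reads as library size, no count filter, DESeq2, each library or number left out, and each lane. Over all genes, where none were called without the block, the replicate block gave 4 calls, and 0 to 12 with both libraries of a number left out (1 without 49, 2 without 33, 3 without 16 and 12 without 21). With number 21 left out the block also gave 1 call among the genes beside the clusters, JAZF1, and it changed no other call. HOXC6 kept its sign in all alternatives (-0.59 to -0.41). HOXB8 turned to -0.040 and HOXD10 to -0.17 in lane 8, and HOXD10 to -0.0033 in the blocked fit without number 33; the cause was not tested. The HOX median was -0.05 with the replicate block, -0.20 to -0.04 with 1 library left out, -0.26 in lane 8 and 0.11 in lane 7. With 1 library left out, 0 to 3 members had an unadjusted p under 0.05, where 1.39 to 6.11% of all genes had. The median of the Polycomb and trithorax regulators was -0.24 in lane 8 and 0.08 at its highest, so it turned sign over the alternatives. Medians of the retinoic acid genes (-0.24 to 0.06) and of the genes beside the clusters (-0.17 to 0.07) also turned sign. Counting tested members only, the hypoxia sums were 262 CPM for HOXA, 182 for HOXD and 856 for all HOX, since fewer genes entered. Depth limits the sparse members.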
